A study of Homo sapiens with 24 samples.

Results

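ATP synthase and the vacuolar ATPase are the rotary proton machines of the cell, and the genes of both were compared over the 8 groups of an RNA-seq experiment on SW1783, a human astrocytoma cell line. Members were all protein-coding genes whose current symbol begins with ATP5F1, ATP5M, ATP5P or ATP5IF (ATP synthase, nuclear), MT-ATP (ATP synthase, mitochondrial DNA), ATP6V or ATP6AP (vacuolar ATPase). The rule used names alone, with no measured value, and found 48 genes among 19586 protein-coding genes of the table, 22 of the F-type (ATP synthase) and 26 of the V-type (vacuolar ATPase). Cells were treated for 24 h with a water extract of Schisandrae Fructus (WESF) at 20 (low), 100 (medium) or 500 (high) µg/mL in batch A, or with a 70% ethanol extract (EESF) at 12.4, 62 or 310 µg/mL in batch B. Each batch had its own vehicle group of PBS with 0.1% DMSO, and each group had 3 libraries. The study asked how a polar and a less polar extract of the fruit act on mitochondrial energy metabolism. Every group is the same cell line, with no genetic change named in the labels, and per the study's methods the high dose of EESF was slightly toxic in a preliminary screen, while that of WESF was not. Extract and batch cannot be told apart, and the doses of the extracts differ in µg/mL. Depth ranged from 18727797 to 32567395 expected counts per library.

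ATP synthase sits in the inner mitochondrial membrane. Protons flow through its membrane sector, Fo, turn a ring of c subunits, and drive ATP formation in the F1 head, while a peripheral stalk keeps the head from turning. Its membrane subunits a and 8 are encoded by mitochondrial DNA and the others by the nucleus. The V-ATPase runs the same kind of rotor in reverse: its V1 sector splits ATP and its Vo sector pumps protons into lysosomes, endosomes and other vesicles, which acidifies them. The V1 and Vo sectors can come apart, and many V-type subunits exist as paralogs, some of which are used mainly in kidney, bone or other specialised cells.

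Most subunits of both machines were expressed in the vehicle libraries. CPM values (a gene's counts relative to the library's TMM-scaled total) were divided by the length of the reference transcript, or of its coding part, to compare levels between genes. Subunits a and 8 from mitochondrial DNA led on either measure, with 10500 ± 295 CPM per kb for MT-ATP6 and 5590 ± 317 for MT-ATP8 (SD, n = 3, vehicle A). Among nuclear genes, ATP6V0C, the proteolipid of the V-type rotor, stood at 216 ± 9.73 CPM per kb and at 508 per coding kb. Catalytic subunit A of V1, ATP6V1A, was at 11.6 ± 0.381 and at 28.6 per coding kb. The 3 genes for the c subunit of ATP synthase differed: ATP5MC2 was at 181 ± 11.4 CPM per kb, ATP5MC1 at 129 ± 9.4 and ATP5MC3 at 2.19 ± 0.265, and the order was the same per coding kb. Levels per kb depend on which transcript stands for a gene, so only orders that held for both lengths are given. At the other end, ATP5MGL, a retrogene, and ATP6V0A4 and ATP6V0D2, subunit forms best known from kidney and osteoclasts, stayed under 1 CPM in every library, as did ATP6V1G2 and ATP6V1G3. ATP5MGL, ATP6V0A4 and ATP6V1G3 did not pass the filter on low counts in any comparison, ATP6V0D2 was tested only for the difference between extracts at the medium dose, and ATP6V1G2 was left out at the high and medium doses of WESF.

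The labelled cell type was checked against its markers. VIM stood at 4821 CPM, CD44 at 2836, SOX9 at 81.7 and SLC1A3 at 31.8 (means of vehicle A), whereas GFAP, S100B, SLC1A2, AQP4 and ALDH1L1, which define mature astrocytes, were at or near 0. In these bulk libraries, fewer cells of a type and less RNA per cell cannot be told apart. Markers of other cell types were low in the vehicle libraries and moved at the high doses and, for fewer of them, at the medium doses. The summed CPM of 3 neuron markers was 51.4 to 55.5 in vehicle A and 21.9 to 24.2 at high WESF, and 55.5 to 57.1 in vehicle B and 23.9 to 28.8 at high EESF, with SNAP25 or SYT1 the most abundant. SNAP25 and SYT1 fell at both high doses, while RBFOX3 rose at high WESF and stayed under 1 CPM on average. For 3 microglia and leukocyte markers the sums were 9.51 to 10.7 and 1.97 to 2.37 in batch A and 8.92 to 10.5 and 1.53 to 2.27 in batch B, nearly all from PTPRC, with AIF1 at 0 in these libraries. The 3 oligodendrocyte markers summed to 6.74 to 7.67 and 11.3 to 14.1, and to 6.55 to 7.32 and 9.65 to 10.2, nearly all MBP with MOG at 0. The endothelium markers summed to at most 1.55 CPM. Of the 10 astrocyte and astrocytoma markers 5 were tested, and 4 fell at each high dose (SLC1A3, CD44, NES and SOX9). At the medium doses SLC1A3 (-0.36 for WESF and -0.30 for EESF), SOX9 (-0.24 and -0.23) and SYT1 (-0.48 and -0.32) fell for both extracts, as did PECAM1, an endothelium marker, for WESF (-1.05) and PTPRC for EESF (-0.35). No marker was called at the low doses. The part of these markers in the results below was not tested.

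The vehicles of the 2 batches were compared first. None of 13001 genes had an adjusted p under 0.05 by edgeR's quasi-likelihood test (0.0% of genes), though 371 had an unadjusted p under 0.05. Among the members MT-ATP6 stood out, with 8327, 8793 and 8735 CPM in vehicle B and 6953, 7218 and 7348 in vehicle A. The groups did not overlap, and the difference was 0.26 ± 0.035 on the log2 scale (SE, adjusted p = 0.119). Each dose is therefore set against the vehicle of its own batch.

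At the high dose of WESF, more ATP synthase genes fell than rose. Of 21 F-type genes tested, 13 fell and 2 rose at an adjusted p under 0.05, where 34.6% of all 13129 genes fell and 34.3% rose. The median log2 fold change of the F-type genes was -0.28 (all genes 0.00), so most changes were small. The peripheral stalk and the mitochondrially encoded subunits fell together, and ATP5F1B, the catalytic beta subunit, rose slightly. Only ATP5MC3 fell beyond 1.5-fold, the threshold for a DEG, which 13.0% of all genes passed downwards and 11.1% upwards. Under the alternatives the log2 fold change of ATP5MC3 lay between -0.713 and -0.506. The threshold is 0.585 on that scale, so ATP5MC3 did not pass it in every alternative. The p-values measure the spread between libraries, which may be technical, since nothing in the labels says that replicates were separate cultures.

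All 4 stalk genes fell, as did 34.6% of all genes. ATP5PB, the b subunit that ties the membrane sector to the stalk, was at 148, 139 and 136 CPM in vehicle A and 104, 112 and 115 at high WESF, a log2 fold change of -0.35 ± 0.050 (adjusted p = 8.348e-06). ATP5PF, coupling factor 6, went from 51.0, 52.7 and 46.5 CPM to 39.0, 33.2 and 39.7 (-0.42 ± 0.066, adjusted p = 2.293e-05). No treated library of either gene reached a vehicle library. ATP5PF shares 692 exonic bases with the opposite strand of GABPA, which had a median of 788 counts against 1164 for ATP5PF. The sources used here do not say whether counting used the strand. ATP5PO, at the top of the stalk, changed by -0.33 ± 0.051, and ATP5PD by -0.19 ± 0.063, the smallest of the 4 and no longer called without replicate 1 of high WESF (adjusted p = 0.0907) or with the low dose as reference.

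The F1 head was divided. ATP5F1C, the gamma subunit of the rotating shaft, fell from 102, 94.5 and 89.1 CPM to 70.5, 72.7 and 73.4 (-0.40 ± 0.051, adjusted p = 2.475e-06). ATP5F1A, the alpha subunit, fell by 8.93% (adjusted p = 0.009815). Its partner ATP5F1B rose by 14.9%, from 465, 433 and 448 CPM to 521, 504 and 523 (0.20 ± 0.043, adjusted p = 0.0005023). ATP5F1D (0.02 ± 0.068) and ATP5F1E (-0.06 ± 0.055), the small delta and epsilon subunits of the shaft, did not pass the test. ATP5IF1, the inhibitor that blocks ATP synthase from running backwards, had the lowest adjusted p of the F-type: 67.6, 62.8 and 61.1 CPM against 48.2, 46.7 and 46.0 (-0.44 ± 0.050, adjusted p = 5.863e-07).

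In the membrane sector 6 of 10 genes fell and 1 rose, where 34.6% of all genes fell and 34.3% rose. The 3 ATP5MC genes encode 1 mature c subunit, and their coding parts are shown because the protein is shared while the bases that tell their reads apart are not. Over the last 77 codons the genes encode the same residues and are not all alike at 57 of 231 bases. ATP5MC1 and ATP5MC2 differ at 27 bases, and ATP5MC3 differs from either at 46. The first 60 bases of that stretch, 5′ to 3′ on the coding strand from the GENCODE transcripts on GRCh38, have capitals where the 3 are not all alike:
ATP5MC1: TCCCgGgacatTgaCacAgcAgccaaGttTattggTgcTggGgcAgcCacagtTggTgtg
ATP5MC2: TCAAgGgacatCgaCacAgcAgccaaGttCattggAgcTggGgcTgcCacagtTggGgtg
ATP5MC3: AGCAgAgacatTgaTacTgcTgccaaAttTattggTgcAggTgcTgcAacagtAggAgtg
ATP5MC3 had 6.41, 5.53 and 5.06 CPM in vehicle A and 3.43, 3.50 and 4.29 at high WESF (-0.60 ± 0.134, adjusted p = 0.0007745). ATP5MC2, which carried more of the counts, went from 123, 110 and 111 to 99.7, 91.1 and 92.8 CPM (-0.28 ± 0.052, adjusted p = 0.0001619). ATP5MC1 did not pass (-0.14 ± 0.067, adjusted p = 0.06973). Thus every treated library lay below the vehicle for ATP5MC2 and ATP5MC3, and the libraries of ATP5MC1 overlapped. Of the small membrane subunits, ATP5MF (-0.38 ± 0.065) and ATP5MG (-0.30 ± 0.050) fell, and ATP5MK, a subunit that helps ATP synthase pair into dimers, rose from 24.0, 19.2 and 19.5 CPM to 29.9, 26.6 and 29.7 (0.46 ± 0.079, adjusted p = 6.474e-05).

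MT-ATP6 and MT-ATP8 are read from overlapping frames of the same mitochondrial transcript. MT-ATP8 lies at 8366 to 8572 and MT-ATP6 at 8527 to 9207 of the mitochondrial chromosome (GRCh38, forward strand), both a single exon. The stretch below begins at base 8515. Capitals mark the 46 bases, from the start codon of MT-ATP6 to the end of MT-ATP8, that belong to both genes and cannot tell them apart:
MT-ATP8 and MT-ATP6: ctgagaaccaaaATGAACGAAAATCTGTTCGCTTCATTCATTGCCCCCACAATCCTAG
MT-ATP6 also has a nuclear copy, MTATP6P1 on chromosome 1 (633696 to 634376), which differs from it at 10 of 681 bases and took 11.6% to 15.9% of the counts of the pair in the 24 libraries. At high WESF MT-ATP6 fell from 6953, 7218 and 7348 to 6063, 4679 and 5401 CPM (-0.41 ± 0.069, adjusted p = 4.678e-05). MT-ATP8 fell from 1120, 1234 and 1120 to 1052, 751 and 896 CPM (-0.37 ± 0.083, adjusted p = 0.0009034). Replicate 2 of high WESF was the lowest for both. Mitochondrial mRNA as a whole moved with them: it made up 9.02% to 9.21% of the counts in vehicle A and 6.76% to 8.45% at high WESF. The copy's share was 12.6% to 14.9% in vehicle A and 13.8% to 14.5% at high WESF.

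**Figure D1:**
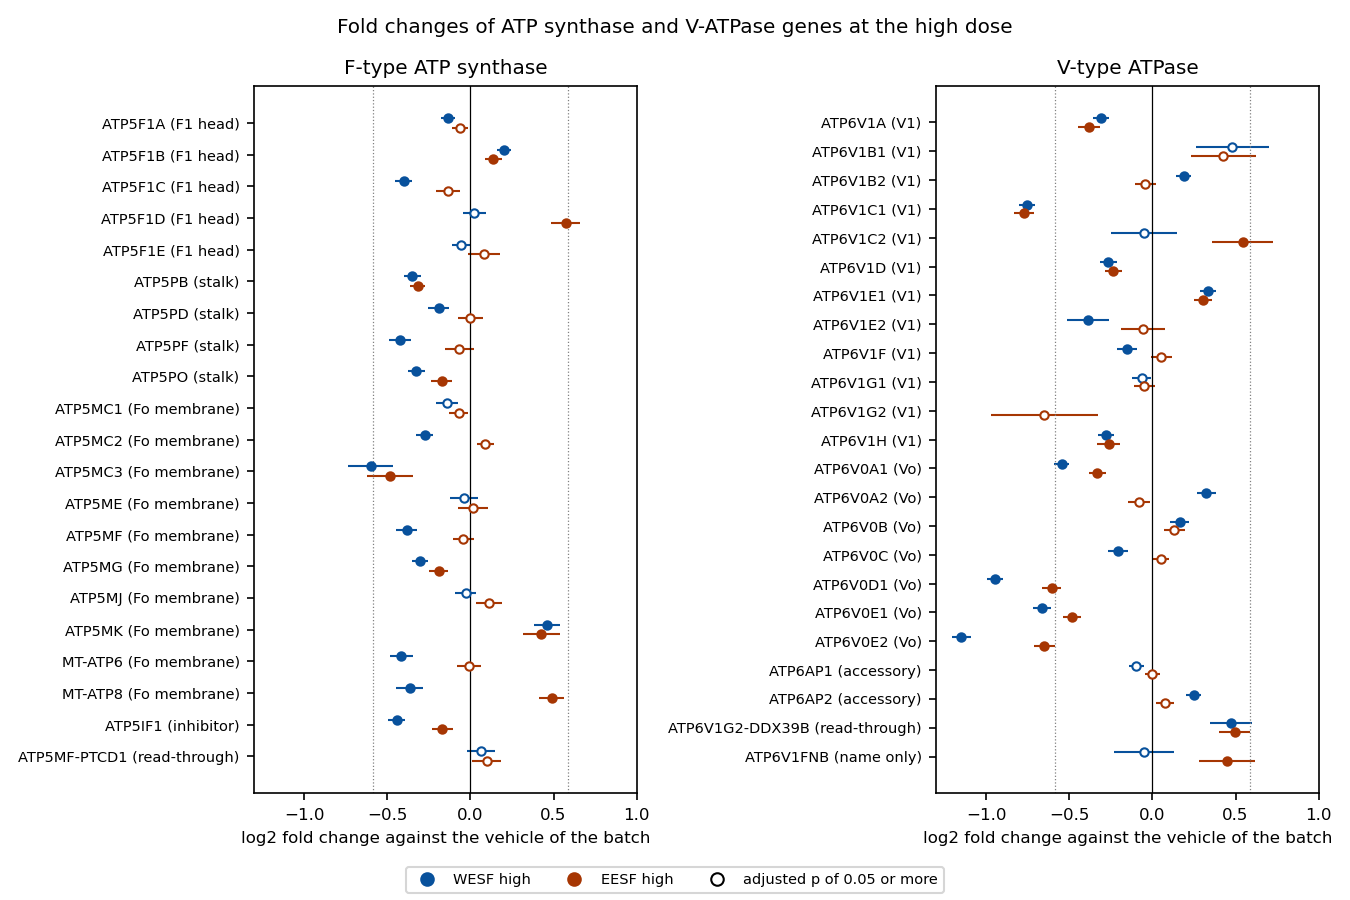
Log2 fold change (x axis) of each tested gene at the high dose of WESF (blue) and EESF (brown) against the vehicle of its batch, with bars for the SE of a fit on 3 against 3 libraries; filled points have an adjusted p under 0.05 and dotted lines mark 1.5-fold. The 4 stalk genes lie left of 0 for WESF, and ATP6V0E2 (-1.15) and ATP6V0D1 (-0.95) lie farthest left of all.

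At the high dose of WESF the V-ATPase genes moved in both directions. Of 22 tested, 11 fell and 6 rose, with a median log2 fold change of -0.12, where 34.6% of all genes fell and 34.3% rose. A fall beyond 1.5-fold was seen for 4, and 13.0% of all genes fell that far, while none of the 22 rose beyond it (11.1% of all genes). The falls beyond 1.5-fold were those of ATP6V0E2, ATP6V0D1 and ATP6V0E1 of the Vo sector and of ATP6V1C1 of V1. In the Vo sector 5 of 7 tested genes fell and 2 rose (median -0.55), and in V1 6 of 11 fell and 2 rose (median -0.15), to be read against the same shares. The V1 falls include ATP6V1F, whose call was lost in 8 of 15 alternatives (adjusted p up to 0.312, with the low dose as reference). The 6 rises include the read-through gene ATP6V1G2-DDX39B (0.47), which may hold reads of DDX39B and was not called with DESeq2 (adjusted p = 0.0875).

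ATP6V0E2 (chromosome 7, 149872968 to 149891204, forward strand), 1 of the paralogs for the small e subunit of the proton channel, had the largest fall in fold change of the members tested. It had 64.3, 63.0 and 57.3 CPM in vehicle A and 28.8, 27.6 and 26.9 at high WESF, a fall of 54.9% (-1.15 ± 0.056, adjusted p = 1.741e-11). ATP6V0E1 (chromosome 5, 172983771 to 173035445, forward strand), the other paralog, went from 116, 107 and 102 to 69.8, 63.4 and 71.4 CPM (-0.67 ± 0.055, adjusted p = 1.308e-08). ATP6V0D1 (chromosome 16, 67438014 to 67481181, reverse strand), the d subunit that couples the V1 shaft to the Vo ring, went from 94.5, 89.1 and 86.6 to 44.7, 47.4 and 48.2 CPM, a fall of 48.1% (-0.95 ± 0.050, adjusted p = 4.479e-11). For each of these genes the highest treated library was below the lowest vehicle library. ATP6V0E2 shares 864 exonic bases with an antisense RNA, ATP6V0E2-AS1, which had a median of 103 counts per library against 1275 for ATP6V0E2, and the sources used here do not say whether counting used the strand.

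Subunit a, which forms the path of the protons and directs the pump to different membranes, was divided between paralogs. ATP6V0A1 fell from 76.0, 78.8 and 76.0 CPM to 54.6, 51.5 and 52.1 (-0.55 ± 0.046, adjusted p = 1.782e-08). ATP6V0A2, known from the Golgi, rose from 27.8, 27.5 and 29.9 to 34.6, 34.3 and 37.8 (0.33 ± 0.059, adjusted p = 0.0001148). TCIRG1, the a3 form best known from osteoclasts, did not pass at high WESF (0.11, adjusted p = 0.08255). It did rise at the low (0.25, adjusted p = 0.01582), medium (0.27, 0.007184) and high (0.33, 0.002821) doses of EESF, which share vehicle B. Of the proteolipids of the ring, ATP6V0C fell by 13.5% (adjusted p = 0.005057) and ATP6V0B rose (0.16 ± 0.057, adjusted p = 0.018), though the treated and vehicle libraries of ATP6V0B overlapped. With the low dose as reference, the call of ATP6V0C was lost (-0.14, adjusted p = 0.104), and its value was -0.13 without replicate 2 of high WESF. That of ATP6V0B was lost without replicate 2 (adjusted p = 0.109) or 3 (0.067) of vehicle A and without replicate 1 (0.129) or 3 (0.0579) of high WESF.

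In V1, ATP6V1C1, the C subunit that lets V1 and Vo come apart and rejoin, had 92.6, 92.6 and 97.3 CPM in vehicle A and 55.1, 55.7 and 56.6 at high WESF (-0.75 ± 0.046, adjusted p = 2.587e-10). Its low paralog ATP6V1C2 was near 2 CPM in both groups (-0.05 ± 0.199). The catalytic ATP6V1A fell by 19.3% (adjusted p = 3.427e-05), and so did ATP6V1D of the shaft by 16.8% and the regulatory ATP6V1H by 17.6%. ATP6V1E1, of the peripheral stalks, rose from 97.0, 95.1 and 86.5 to 116, 118 and 119 CPM (0.34 ± 0.048, adjusted p = 8.932e-06), while its low paralog ATP6V1E2 changed by -0.39 ± 0.126 (adjusted p = 0.0112). That call was lost without replicate 2 of high WESF (adjusted p = 0.0565) and with the low dose as reference (adjusted p = 0.0714). The exons of ATP6V1E2 share 243 bases with the opposite strand of RHOQ, which had a median of 2197 counts against 136.5. ATP6V1B2, the B subunit found in most cells, rose by 13.8% (adjusted p = 0.001042). Its low paralog ATP6V1B1, at a mean of 1.39 CPM in vehicle A and 1.94 at high WESF, was not called (0.48 ± 0.219, adjusted p = 0.06055). Nor was it at high EESF (0.425 ± 0.195, adjusted p = 0.07933). ATP6V1G1 did not pass (-0.06 ± 0.057). ATP6AP2, the accessory protein also known as the prorenin receptor, rose by 18.8% (adjusted p = 7.869e-05), and ATP6AP1 did not pass (-0.10 ± 0.044).

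**Figure D2:**
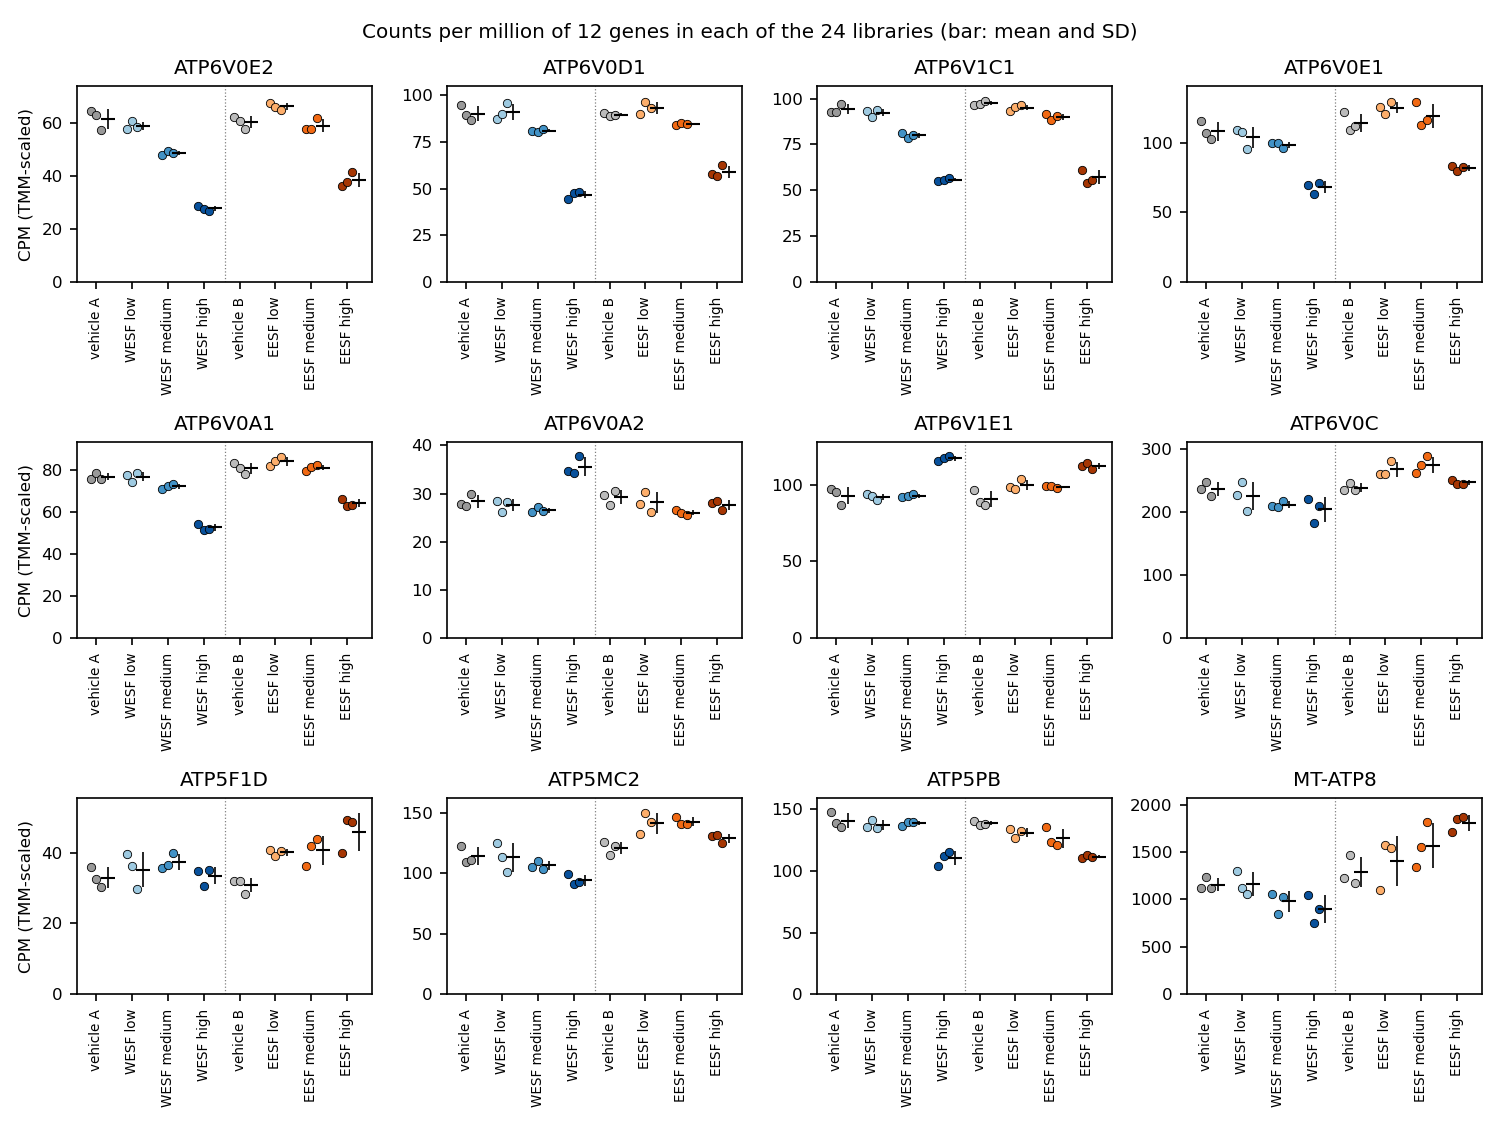
CPM (y axis, from 0) of 12 genes in each of the 24 libraries by group, with the mean and SD beside each group's 3 points and a dotted line between batches A and B. ATP6V0E2, ATP6V0D1, ATP6V1C1 and ATP6V0E1 are lowest at the high dose of either extract, while ATP5F1D and MT-ATP8 are highest at high EESF.

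At the high dose of EESF the ATP synthase genes showed no common direction. Of 21 F-type genes tested 5 fell and 4 rose, where 28.7% of all 13092 genes fell and 29.3% rose, with a median log2 fold change of -0.01 and no DEG. With the low dose as reference 8 of the 21 fell and 5 rose, and 3744 of 13197 genes fell and 3783 rose. ATP5F1D, the delta subunit of the shaft, rose most, from 32.1, 32.1 and 28.5 CPM in vehicle B to 39.8, 49.2 and 48.8 (0.57 ± 0.086, adjusted p = 0.000116). It was also raised at the lower doses, and with the low dose as reference the difference was 0.20 (adjusted p = 0.0369). MT-ATP8 rose from 1226, 1471 and 1173 to 1716, 1845 and 1876 CPM (0.49 ± 0.076, adjusted p = 0.0001488). MT-ATP6, on the same transcript, did not pass (-0.01 ± 0.070). The CPM of MT-ATP8 per CPM of MT-ATP6 was 0.176, 0.232 and 0.233 at high EESF and 0.147, 0.167 and 0.134 in vehicle B. These groups did not overlap, but other groups reached the lowest library of high EESF: low EESF was at 0.123, 0.175 and 0.181 and low WESF at 0.154, 0.163 and 0.184. In vehicle A it was 0.161, 0.171 and 0.152, and at high WESF 0.174, 0.160 and 0.166. Medium EESF (0.159, 0.148 and 0.162) and medium WESF (0.156, 0.137 and 0.165) stayed below 0.176. Mitochondrial mRNA made up 10.1% to 10.9% of the counts at high EESF and 10.2% to 10.5% in vehicle B. ATP5MK (0.43 ± 0.112) and ATP5F1B (0.14 ± 0.051) also rose. The falls were those of ATP5MC3 (-0.48 ± 0.137), ATP5PB (-0.32 ± 0.047), ATP5MG (-0.19 ± 0.056), ATP5PO (-0.17 ± 0.063) and ATP5IF1 (-0.17 ± 0.062). The call of ATP5MC3 was lost without replicate 1 of vehicle B (-0.35, adjusted p = 0.0514) and with the low dose as reference (-0.29, adjusted p = 0.0591). That of ATP5MG was lost without replicate 2 of vehicle B (adjusted p = 0.0666), and that of ATP5IF1 in 6 of 15 alternatives (adjusted p up to 0.0961, without the same library). The calls of ATP5PO and ATP5F1B were lost in 5 and 6 of 15, up to an adjusted p of 0.15 for ATP5PO without replicate 1 of vehicle B and 0.189 for ATP5F1B without replicate 2. With the replicate block neither passed (0.0839 and 0.0901).

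Among vacuolar genes 8 of 23 fell and 4 rose at high EESF, with a median of -0.05, where 28.7% of all genes fell and 29.3% rose. The 3 largest called falls passed 1.5-fold, which 9.17% of all genes did downwards and 8.21% upwards. ATP6V1G2, under 1 CPM in every library, changed by -0.65 ± 0.320 and was not called (adjusted p = 0.09954). ATP6V1C1 went from 96.6, 97.1 and 98.5 to 61.3, 54.1 and 55.6 CPM (-0.77 ± 0.058, adjusted p = 4.472e-07). ATP6V0E2 went from 62.3, 60.7 and 57.8 to 36.2, 37.6 and 41.5 CPM (-0.65 ± 0.064, adjusted p = 3.982e-06), and ATP6V0D1 from 90.4, 88.9 and 89.2 to 57.5, 56.7 and 62.3 CPM (-0.61 ± 0.055, adjusted p = 2.027e-06). In none of these did a treated library reach the vehicle's. Under the alternatives the smallest log2 fold change of ATP6V0D1 was -0.584, just short of the 1.5-fold threshold (0.585 on that scale). ATP6V0E1 (-0.48 ± 0.055), ATP6V1A (-0.38 ± 0.065), ATP6V0A1 (-0.33 ± 0.052), ATP6V1H (-0.26 ± 0.068) and ATP6V1D (-0.24 ± 0.052) fell less, ATP6V1A by 0.20 with the low dose as reference. ATP6V1E1 rose from 96.3, 89.0 and 86.9 to 113, 114 and 110 CPM (0.31 ± 0.054, adjusted p = 0.0003692), and by 0.17 with the low dose as reference (adjusted p = 0.00562). ATP6V1C2 rose from 2.22, 1.48 and 1.62 to 2.83, 2.52 and 2.43 CPM (0.54 ± 0.185, adjusted p = 0.02327), but its exons share 1033 bases with the opposite strand of PDIA6, which had a median of 13850 counts against 48.8 for ATP6V1C2. Its call was lost with DESeq2 (adjusted p = 0.0757) and without replicate 2 (0.11) or 3 (0.0773) of vehicle B or replicate 1 of high EESF (0.0582). The other rises were those of ATP6V1FNB, a neighbouring gene that is no known subunit, and of the read-through gene ATP6V1G2-DDX39B, which shares 2079 exonic bases with DDX39B and so may hold its reads. The call of ATP6V1FNB was lost in 8 of 15 alternatives (adjusted p up to 0.138).

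Tests of the difference between the extracts asked which of these responses were unlike. The log2 fold change at high EESF minus that at high WESF was fitted over 12 libraries, and 12.7% of 13376 genes were higher and 13.3% lower for EESF at an adjusted p under 0.05. Of 21 F-type genes, 8 were higher for EESF and none lower. They were MT-ATP8 (0.86 ± 0.138), ATP5F1D (0.55 ± 0.122), MT-ATP6 (0.41 ± 0.114), ATP5MC2 (0.37 ± 0.074), ATP5PF (0.36 ± 0.122), ATP5MF (0.34 ± 0.101), ATP5IF1 (0.28 ± 0.079) and ATP5F1C (0.27 ± 0.094). For the mitochondrial pair the vehicles themselves lay apart, by 0.26 for MT-ATP6 and 0.15 ± 0.077 for MT-ATP8 (adjusted p = 0.9999), with vehicle B the higher. Of 23 V-type genes, 4 were higher for EESF, all in Vo and all with a smaller fall or none: ATP6V0E2 (0.50 ± 0.086), ATP6V0D1 (0.34 ± 0.071), ATP6V0C (0.26 ± 0.084) and ATP6V0A1 (0.21 ± 0.064). ATP6V0A2 (-0.40 ± 0.084) and ATP6V1B2 (-0.23 ± 0.074) were lower for EESF. For ATP6V1C1 the difference was -0.02 ± 0.069, for ATP6V1E1 -0.03 ± 0.071 and for ATP5PB 0.04 ± 0.066, none past the test. Without replicate 3 of vehicle B, the differences of ATP5F1C, ATP5IF1, ATP5MF, ATP5PF, ATP6V0A1, ATP6V0C and ATP6V1B2 no longer passed (adjusted p from 0.0586 to 0.133).

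At the medium doses few members changed, and the calls for WESF were both V-type. In the medium-dose WESF group 2.2% of 13112 genes fell and 1.89% rose. None of the 21 F-type genes passed, and of 22 V-type genes 2 fell. ATP6V0E2 was at 47.9, 49.6 and 48.6 CPM, below all of vehicle A (-0.34 ± 0.051, adjusted p = 0.003651), and ATP6V1C1 was at 81.2, 78.6 and 80.4 (-0.24 ± 0.043, adjusted p = 0.008671). The call of ATP6V1C1 was lost without replicate 2 of vehicle A (adjusted p = 0.05) and without replicate 2 (0.0621) or 3 (0.0694) of medium WESF. Their medium-dose levels thus lay between those of the vehicle and the high dose. The libraries of ATP6V0C, ATP6V0D1, ATP6V1A, MT-ATP6 and MT-ATP8 were also below all of vehicle A, with adjusted p of 0.05565, 0.06145, 0.06318, 0.05619 and 0.05863 in that order, and none of them was called. So were those of ATP6V0E1 (adjusted p = 0.1198), ATP6V0A1 (0.2339), ATP6V1H (0.2903) and ATP6V0A2 (0.3377), so groups without overlap were not always close to the threshold. The share of all genes without overlap was not counted, so the lack of overlap in these uncalled genes is not read as a change. Mitochondrial mRNA as a whole was also lower, at 7.73% to 8.96% of the counts at medium WESF against 9.02% to 9.21% in vehicle A. At the low dose of WESF 0.0% of 13131 genes had an adjusted p under 0.05 and 470 had an unadjusted p under 0.05, so no member was called.

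Few F-type genes rose, and none fell, at the medium or low dose of EESF. At the medium dose, where 6.9% of 12978 genes rose and 8.48% fell, ATP5F1D (0.40 ± 0.073), ATP5MC2 (0.24 ± 0.046) and MT-ATP8 (0.29 ± 0.092) rose, and 18 of the 21 F-type genes did not pass. The rise of MT-ATP8 was lost in 8 of 13 alternatives, with an adjusted p of 0.275 with DESeq2 and 0.248 without replicate 3 of medium EESF. Mitochondrial mRNA made up 10.06%, 11.9% and 12.54% of the counts at medium EESF and 10.19% to 10.45% in vehicle B. At the low dose, where 3.11% of 12892 genes rose and 6.24% fell, ATP5F1D (0.37 ± 0.056) and ATP5MC2 (0.21 ± 0.050) rose, the latter no longer called without replicate 2 of vehicle B (adjusted p = 0.11) or replicate 2 (0.103) or 3 (0.0749) of low EESF. ATP5F1D had 40.8, 39.1 and 40.6 CPM at the low and 36.2, 42.0 and 43.8 at the medium dose, all above vehicle B. ATP5MC2 had 132, 150 and 143 CPM at the low, 147, 141 and 141 at the medium and 131, 132 and 125 at the high dose, against 126, 116 and 123 in vehicle B, so its highest levels were not at the highest dose. Among V-type genes ATP6V0C rose (0.16 ± 0.043 at the low and 0.21 ± 0.048 at the medium dose) and ATP6V1A fell (-0.19 ± 0.054 and -0.18 ± 0.055), and the other 21 tested did not pass at either dose. The rise of ATP6V0C at the low dose was lost in 6 of 14 alternatives, up to an adjusted p of 0.152 without replicate 3 of low EESF, and that at the medium dose without replicate 3 of medium EESF (0.0715). The fall of ATP6V1A was lost in 9 of 14 alternatives at the low dose, DESeq2 among them (0.062), and in 6 of 14 at the medium dose, with adjusted p up to 0.181 and 0.142 (both without replicate 3 of vehicle B). The 3 EESF groups share vehicle B, so these rises are not separate evidence. In the test of the difference at the medium dose, where 0.0979% of 13276 genes were higher and 0.105% lower for EESF, ATP5MC2 (0.34 ± 0.066, adjusted p = 0.04543) and ATP6V0C (0.36 ± 0.064, adjusted p = 0.03599) were higher. They were lost in 12 and 10 of 20 alternatives, with adjusted p up to 0.145 and 0.129. At the low dose 1 gene of 13221 (0.00756%) passed, and it was no member.

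**Figure D3:**
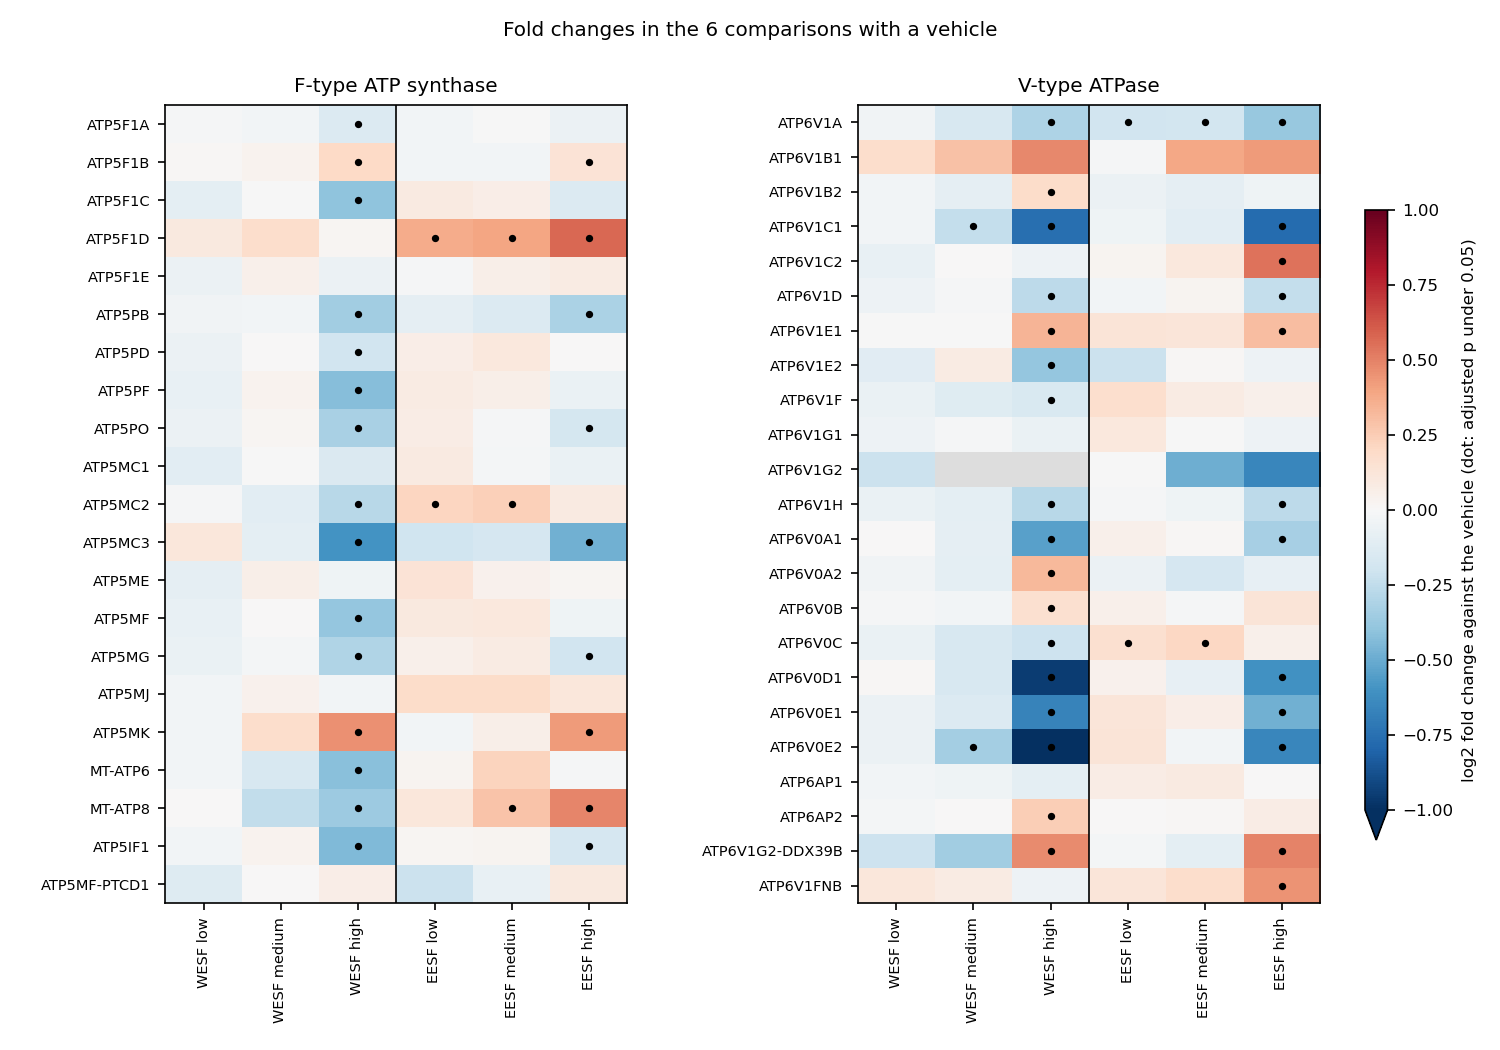
Log2 fold change (colour, blue below and red above 0, the scale ends at -1) of each tested gene in the 6 comparisons with a vehicle; dots mark an adjusted p under 0.05 and grey a gene not tested. Most dots stand in the high-dose columns, and ATP5F1D carries a dot at all 3 doses of EESF and at none of WESF.

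Sums over genes show how far whole sectors moved. The summed CPM of the 18 nuclear F-type genes was 2021, 1885 and 1843 in vehicle A and 1777, 1722 and 1812 at high WESF, against 1963, 1859 and 1786 in vehicle B and 1846, 1893 and 1860 at high EESF. The libraries did not overlap for WESF and did for EESF. For the 9 Vo genes the sums were 751, 730 and 696 in vehicle A, 649, 666 and 668 at medium WESF and 599, 538 and 586 at high WESF. In batch B they were 759, 731 and 720 in the vehicle, 785, 784 and 812 at the low, 770, 753 and 780 at the medium and 661, 648 and 654 at the high dose. V1 sums were 601, 586 and 573 in vehicle A and 540, 539 and 554 at high WESF, and 600.5, 587 and 581 in vehicle B and 553, 541 and 533 at high EESF, with no overlap in either batch. The V-type sum holds 24 genes: V1, Vo and the accessory genes ATP6AP1 (mean 311 CPM in vehicle A, 291 at high WESF) and ATP6AP2 (251 and 299). Per summed nuclear F-type CPM it was 0.979 ± 0.0244 in vehicle A and 0.965 ± 0.00819 at high WESF, a difference within the SD of the vehicle. V1 and Vo fell at high WESF while ATP6AP2 rose, so this ratio does not describe V1 and Vo alone. At medium WESF the same ratio was 0.920, 0.912 and 0.916, below the 0.952, 1.00 and 0.984 of vehicle A. It was 1.006 ± 0.0268 in vehicle B and 0.946 ± 0.0252 at high EESF. These sums weight genes by their counts, are not per length, and were not tested.

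**Figure D4:**
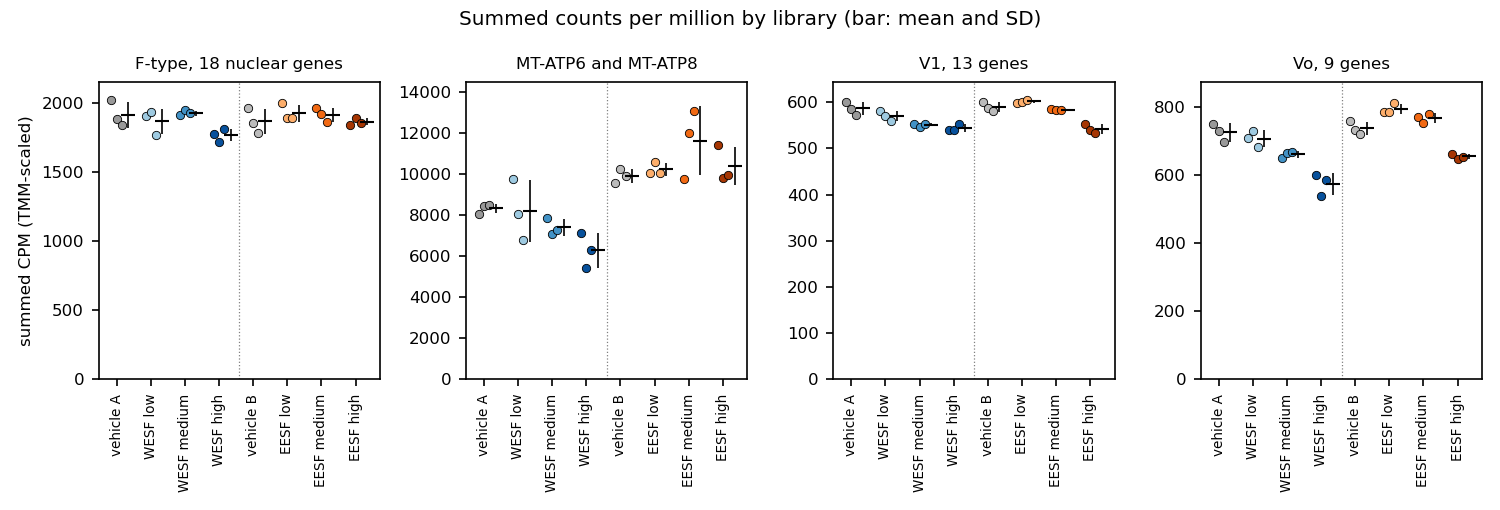
Summed CPM (y axis, from 0) of 18 nuclear F-type genes, the 2 mitochondrial genes, 13 V1 genes and 9 Vo genes in each library by group, with the mean and SD beside each group's points and a dotted line between batches. The Vo sums at high WESF (538 to 599) and high EESF (648 to 661) lie below all libraries of their vehicles (696 to 751 and 720 to 759).

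Partners of the machines were counted beside them, to be read against the 34.6% of all genes that fell and 34.3% that rose at high WESF and the 28.7% and 29.3% at high EESF. Of 10 genes for assembly and substrate supply of ATP synthase, 3 fell and 1 rose at high WESF. ATPAF1, which chaperones the beta subunit, changed by -0.45 (adjusted p = 4.954e-06), and the ADP/ATP carrier SLC25A4 of heart and muscle by -0.86 (adjusted p = 6.032e-08). At high EESF SLC25A4 fell (-0.47) and SLC25A6, another carrier, rose (0.24). Of 18 V-type partners 13 fell and 1 rose at high WESF, and 10 fell and 3 rose at high EESF. The assembly factors TMEM199 (-0.69 and -0.51 at high WESF and EESF) and VMA21 (-0.39 and -0.15), the rabconnectin subunits WDR7 (-0.45 and -0.59) and DMXL1 (-0.36 and -0.69), and OSTM1 (-0.54 and -0.52), partner of the lysosomal chloride exchanger, fell at both. TFEB and MITF, transcription factors for lysosomal genes, fell at both (-0.96 and -0.36 for TFEB, -0.58 and -0.60 for MITF), while TFE3 rose at high EESF (0.31, adjusted p = 0.0001573) and did not pass at high WESF (0.04).

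Related gene lists moved in both directions, with counts to be read against the same shares. Of 63 tested nuclear subunits of respiratory complexes I to IV, 28 fell and 7 rose at high WESF (median -0.12), and 11 fell and 15 rose at high EESF (median -0.01). Of 30 lysosomal proteins, 12 fell and 4 rose at high WESF (median -0.05), and 13 fell and 5 rose at high EESF (median -0.10). SGSH, a lysosomal sulfatase, changed by -0.87 and -0.60, and NPC1, a cholesterol transporter, by 0.61 and 0.39.

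Promoters were read for 4 motifs, on both strands of windows from 250 bases before to 50 after the start (RefSeq, GRCh38.p14), which were found for 31 of the 48 members. The E-box CACGTG, bound by TFEB, TFE3, MITF, MYC and other factors, was in 3 of 14 F-type and 4 of 17 V-type genes and in 8.34% of all 22199 windows, or in a window of 10.9% of 15843 genes. Its longer palindrome TCACGTGA, which contains the E-box, was in ATP5ME, ATP6V0D1 and ATP6V1G1 and in 1.27% of windows and 1.65% of genes. Of the 5 members that fell beyond 1.5-fold at high WESF, ATP5MC3, ATP6V0E1 and ATP6V1C1 had no window and were not read. ATP6V0D1 and ATP6V0E2, picked here for their change, carried the E-box, shown in capitals with 26 bases on each side, 5′ to 3′ on the strand of the gene:
ATP6V0D1 (chr16:67481185-67481242, reverse strand): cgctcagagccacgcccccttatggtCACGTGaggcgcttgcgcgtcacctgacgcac
ATP6V0E2 (chr7:149872870-149872927, forward strand): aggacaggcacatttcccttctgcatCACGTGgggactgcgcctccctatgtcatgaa
ATP5PB, which fell at both high doses, and ATP5MC1, which passed at neither, also carry an E-box. ATP6V1G1 and ATP5ME, with the longer palindrome, did not pass the test at either high dose, and ATP6V0B, with a pair of E-boxes, rose at high WESF in the fit of all libraries. CCGGAAG, the core of ETS factor sites, was in 6 F-type and 2 V-type genes and in 12.8% of windows and 16.5% of genes. CGCATGCG, the palindrome of NRF1 sites, was in 4 of 14 F-type genes, none of the 17 V-type genes, and in 2.49% of windows and 3.28% of all genes. Of these, ATP5F1C, ATP5MC2 and ATP5PF fell at high WESF, as did 13 of the 21 F-type genes tested and 34.6% of all genes. The same genes were higher for EESF than for WESF, as were 8 of the 21 and 12.7% of all genes, but for ATP5F1C and ATP5PF that difference was lost in 11 of 20 alternatives each. ATP5ME did neither, and the matches are shown in capitals:
ATP5F1C (chr10:7788130-7788176, forward strand): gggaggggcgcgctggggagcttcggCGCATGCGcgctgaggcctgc
ATP5MC2 (chr12:53676091-53676150, reverse strand): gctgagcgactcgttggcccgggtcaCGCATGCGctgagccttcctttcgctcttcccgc
ATP5PF (chr21:25735140-25735199, reverse strand): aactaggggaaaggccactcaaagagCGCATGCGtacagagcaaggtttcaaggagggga
ATP5ME (chr4:674320-674379, reverse strand): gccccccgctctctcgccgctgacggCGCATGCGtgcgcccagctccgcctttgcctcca
A match in these letters is a description and not a binding site.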

How the data were processed

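RNA-seq libraries of 24 samples (8 groups of 3, directional kit, 100 bp paired ends) were analysed. The authors trimmed reads with Trim Galore 0.6.6, aligned them with STAR 2.7.9a, and deposited RSEM 1.3.3 expected counts per gene without normalization. RSEM divides reads that match several genes, and 10.9% of the values are not whole. The methods write the build as GRCh38 (hg19), and coordinates here are those of GENCODE release 44 on GRCh38, which gave the symbols.

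Counts were rounded, protein-coding genes passing filterByExpr were kept, and each comparison was fitted on its 6 libraries with edgeR 4.0.16 in R 4.3.3 (TMM, quasi-likelihood test, 2-sided, Benjamini-Hochberg over all genes tested). Calls had an adjusted p under 0.05, and DEGs also a change beyond 1.5-fold. The difference between extracts was an interaction over 12 libraries. On simulated counts with 200 changed genes, the fit was checked for recovery of the changes. Alternatives were DESeq2 1.42.0 (the study's test), its size factors, no filter, all genes, nuclear genes alone, counts thinned to 18727769, all groups of a batch (or of both) in the fit, the low dose as reference for the high doses, a block for replicate number, and single libraries left out. A rule named members for the text: DEGs, the 6 largest called changes of each type at each high dose, genes called for the difference between extracts, and paralog sets. Values of other members are given beside them. The members and lists were chosen with earlier results of these data known. No pair of replicates agreed within sampling noise (chi-square per degree of freedom from 1.99 to 12.8), so all were counted as separate libraries. Protein sequences are not shown here, and encoded residues were compared for the ATP5MC genes.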

Additional observations from a re-analysis of the deposited data

Results flagged for a closer look

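Responses of 16 results differed between the extracts when the difference itself was tested by edgeR's interaction fit (adjusted p under 0.05, EESF minus WESF on the log2 scale, 3 libraries per group). Extract and batch cannot be told apart in any of them. At the high dose the F-type genes were MT-ATP8 (0.86), ATP5F1D (0.55), MT-ATP6 (0.41), ATP5MC2 (0.37), ATP5PF (0.36), ATP5MF (0.34), ATP5IF1 (0.28) and ATP5F1C (0.27). The V-type genes at the high dose were ATP6V0E2 (0.50), ATP6V0D1 (0.34), ATP6V0C (0.26) and ATP6V0A1 (0.21), higher for EESF, and ATP6V0A2 (-0.40) and ATP6V1B2 (-0.23), lower for EESF. At the medium dose they were ATP6V0C (0.36) and ATP5MC2 (0.34).

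Of the 14 at the high dose, 7 passed under every alternative run: MT-ATP8, MT-ATP6, ATP5F1D, ATP5MC2, ATP6V0E2, ATP6V0D1 and ATP6V0A2. The other 7 were each lost without replicate 3 of vehicle B (adjusted p from 0.0586 to 0.133), and of these ATP5PF and ATP5F1C were each lost in 11 of 20 alternatives (adjusted p up to 0.115 and 0.133). Neither of the medium-dose results passed under every alternative. For MT-ATP6 and MT-ATP8 the vehicles lay apart by 0.26 and 0.15, vehicle B the higher.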

How the results depend on the processing

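Counts of called genes at high WESF stayed within 14 to 18 for V-type genes (17 in the report), but F-type calls at high EESF (9 in the report) ranged from 6, with the replicate block or without replicate 1 or 2 of vehicle B, to 13 with the low dose as reference, and V-type calls there from 10 to 13 (12 in the report). Of 32 calls of members at high WESF 26 passed under every alternative, and of 21 at high EESF 14 did, and no call of a member changed sign. Lost somewhere were ATP5PD, ATP6V0B, ATP6V0C, ATP6V1E2, ATP6V1F and ATP6V1G2-DDX39B (adjusted p = 0.0875 with DESeq2) at high WESF, and ATP5F1B, ATP5IF1, ATP5MC3, ATP5MG, ATP5PO, ATP6V1C2 and ATP6V1FNB at high EESF. MT-ATP8 at medium EESF was lost in 8 of 13 alternatives, with adjusted p from 0.00705 to 0.275.

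At medium WESF the F-type calls went from 0 to 1 with DESeq2 and 2 with no filter, and the V-type calls from 2 to 4 with all 4 groups in the fit. Thinned counts left 1 V-type call at medium EESF and 1 at low EESF (2 each in the report), and at low EESF all genes of the table left 1 and all 4 groups in the fit 0. For the difference at the medium dose, F-type calls (1 in the report) were 3 with no filter and 0 with all genes of the table or all 8 groups, and V-type calls (1) were 2 with DESeq2, 2 with no filter and 0 with all 8 groups. The cause of these shifts was not tested. Same-numbered treated and vehicle libraries did not deviate together (correlations from -0.195 to 0.088), so no pairing by number was seen between them. Libraries of different doses were not compared in this way. With the replicate block, the difference at the high dose kept 5 F-type calls (8 in the report) and 3 V-type calls (6), while calls over all 13376 genes went from 1705 up and 1776 down to 1110 and 1135. The difference at the medium dose kept 0 and 0, and 0 over all genes.

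With single libraries left out, F-type calls were 15 to 16 at high WESF, 0 to 4 at medium, 0 to 0 at low, 6 to 9 at high EESF, 2 to 5 at medium and 1 to 5 at low. V-type calls were 16 to 17, 1 to 5, 0 to 0, 10 to 12, 0 to 3 and 0 to 7 in the same order. For the differences they were 4 to 9 and 3 to 7 at the high, 0 to 1 and 0 to 2 at the medium, and 0 to 0 and 0 to 0 at the low dose. The 4 and 5 at medium WESF came without replicate 1 of vehicle A, where calls over all genes went from 248 up and 289 down to 678 and 882. The 5 and 7 at low EESF came without replicate 1 of vehicle B, where they went from 401 and 805 to 957 and 1722.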
